A study of Mus musculus with 60 samples.

Results

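MaLR elements (mammalian apparent LTR retrotransposons) form a branch of the ERVL group of LTR retrotransposons. They were examined here as the repeat subfamilies whose names start with ORR1, MLT1, MTA, MTB, MTC, MTD or MTE. Of 106 such names among 1146 repeat subfamilies, 94 had at least 100 counts summed over the 60 libraries and make up the set described. By branch, 19 of them are MT subfamilies, 28 are ORR1 subfamilies and 47 are MLT1 subfamilies. Long terminal repeats (LTRs) gave 52 rows and internal sequences, whose names end in -int, gave 42.

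RNA was sequenced from mouse embryonic stem cells (E14JU) in which POLE4, a histone-binding subunit of DNA polymerase epsilon, carries a degradation tag (POLE4-dTAG), a tag that all 20 groups share. Cells received DMSO (Ctrl) or dTAG-13, which depletes POLE4 (dPOLE4), in a background with wild-type MCM2 (WT) or with MCM2-2A, a mutant of the replicative helicase subunit MCM2 that cannot bind histones. These 4 combinations of background and treatment are called lines below, although Ctrl and dPOLE4 of a background are the same clone. Each was collected after 24 h of treatment in serum and LIF (T0). Further collections came 12 h (T12), 24 h (T24) and 60 h (T60) after a switch to retinoic acid (RA) without LIF. In a separate experiment each was collected after 96 h of treatment without RA. Each group had 3 libraries, and each background was 1 cell clone, so that a difference between Ctrl MCM2-2A and Ctrl cannot be told apart from a difference between clones. The comparisons ask whether MaLR RNA changes with RA, with loss of MCM2 histone binding and with loss of POLE4.

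MaLR elements do not encode a reverse transcriptase of their own and are thought to have been copied by the enzymes of related ERVL elements. The MT and ORR1 subfamilies are confined to rodents, whereas MLT1 copies are older and are shared by placental mammals. LTRs of the MT branch, MTA in particular, are known as promoters in mouse oocytes, and solitary LTRs or fragments make up most MaLR copies in the genome. One row sums the reads of all copies of a subfamily, including copies that lie within introns and untranslated ends of genes, so that transcription from a MaLR promoter and read-through from a host gene cannot be told apart. In bulk RNA, fewer cells with a transcript and less of it in each cell cannot be told apart either. Levels are given as CPM, counts scaled to a common library size with TMM factors, and are compared between groups, not between subfamilies, because a row's summed length was not used.

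Total counts lay between 10461077 and 46609151 per library in the 24 h and RA experiment and between 7126100 and 23598266 in the 96 h experiment. MaLR rows took 0.258% to 0.45% of these counts in the first and 0.346% to 0.442% in the second. MT rows held 46.7% of all MaLR counts, ORR1 rows 44.3% and MLT1 rows 9.04%. One library stood furthest apart before any comparison: summed MaLR RNA was 3519 CPM in replicate 1 of Ctrl MCM2-2A at T0, against 4380 and 4639 CPM in replicates 2 and 3. All repeats together took 7.3% of its counts, against 8.43% and 8.7%. Counts of calls, branch sums and ratios at T60 in Ctrl MCM2-2A are given with and without it, and its removal from the sums and ratios was chosen after it was seen to stand apart. Replicate 1 was also the lowest T0 library in the other lines. It was at 4302 CPM against 4590 and 4684 CPM in Ctrl and at 4098.5 CPM against 4354 and 4282 CPM in dPOLE4. In dPOLE4 MCM2-2A it was at 4150 CPM against 4587 and 4392 CPM. These libraries were kept, so values without the Ctrl MCM2-2A library do not treat the lines alike. The embryonic stem cell markers (Pou5f1, Sox2, Nanog, Klf4, Zfp42, Esrrb and Tfcp2l1) summed to 3063 ± 65.9 CPM (SD, n = 3) in Ctrl at T0 and to 195 ± 14.2 CPM at T60. Each of the 7 was above 1 CPM at T0. At T60 in Ctrl, 6 of 6 genes of the RA response, 5 of 5 endoderm genes, 2 of 3 neural genes and 1 of 2 trophoblast genes tested rose, 1 trophoblast gene fell, and all 7 stem cell markers fell. Of 5 oocyte genes (Zp1, Zp2, Zp3, Gdf9 and Oosp1), 4 were under 1 CPM in Ctrl at T0 and 5 at T60, and the 1 that could be tested, Zp3, fell (-3.999).

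All 3 branches were lower after 60 h of RA in Ctrl cells. The MT branch summed to 2003, 2141 and 2139 CPM in the 3 T0 libraries and to 1262, 1378 and 1262 CPM in the 3 T60 libraries. The ORR1 branch went from 1913, 2045 and 2129 CPM to 1130, 1167 and 1099 CPM. The MLT1 branch was at 386, 404 and 416 CPM at T0 and at 230, 281 and 226 CPM at T60. In each branch every T60 library was below every T0 library, and the log2 differences were -0.69 for MT, -0.84 for ORR1 and -0.72 for MLT1. The exact two-sided permutation test gave p = 0.1 for each, the smallest value that 3 against 3 libraries allow.

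**Figure D1:**
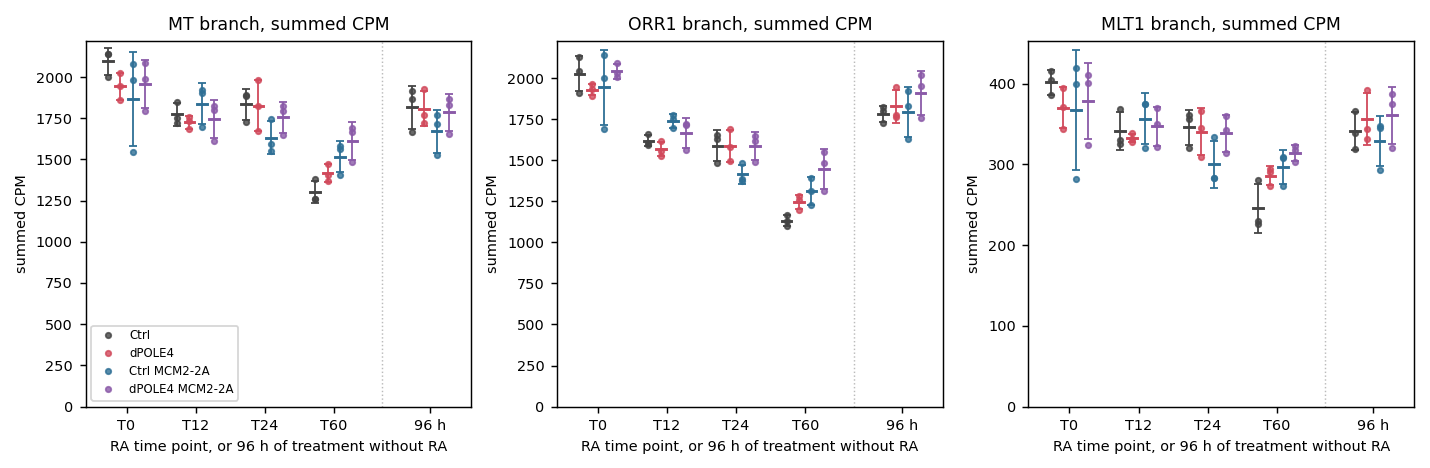
Summed CPM of the MT, ORR1 and MLT1 branches (vertical axes) at T0, T12, T24 and T60 and, right of the dotted line, at 96 h without RA (horizontal axes), for Ctrl, dPOLE4, Ctrl MCM2-2A and dPOLE4 MCM2-2A. Points are libraries, bars are means and error bars are SDs of 3; in Ctrl the ORR1 branch goes from a mean of 2029 CPM at T0 to 1132 CPM at T60.

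Rows were tested one by one with edgeR's quasi-likelihood test on all genes and repeats, and a row is called when its adjusted p is below 0.01 and its log2 fold change exceeds 0.58 in size. In Ctrl cells the early response was small. At T12, 1 of 83 MaLR rows tested was called lower and none higher, while 4.04% of all features were called lower, and the median log2 fold change of the rows was -0.25 against 0.0057 over all features. The called row was ORR1A0-int, at 128, 124 and 128 CPM at T0 and 86.1, 81.9 and 81.7 CPM at T12, which fell by 0.60 on the log2 scale (SE 0.053, adjusted p = 4.2e-06). At T24, 6 of 85 rows were called lower, or 7.06%, near the 8.27% of all features. Of the 6, 5 were ORR1 internal rows: ORR1C2-int (-0.73), ORR1A0-int (-0.68), ORR1C1-int (-0.60), ORR1B2-int (-0.59) and ORR1A2-int (-0.59). The other was MLT1J1-int (-0.70). The median over all members was -0.23 at T24. With 1 library left out, the count at T12 was 1 to 3 (3 without replicate 1 of Ctrl T0) and that at T24 was 2 to 10 (2 without replicate 3 of Ctrl T24, 10 without replicate 1 of Ctrl T0).

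At T60, 56 of the 83 MaLR rows tested in Ctrl fell, or 67.5%, and none rose. Over all features 23.7% were called lower. The MaLR median was -0.78 on the log2 scale and that of genes was 0.041. Other repeats were lower too: 57.3% of the 386 other LTR rows were called lower with a median of -0.88, and so were 57.7% of 52 rows of old interspersed repeats outside MaLR (MIR, L2, MER5, MER20 and Charlie) with a median of -0.70. Of the 83 rows, 66 had T60 and T0 libraries that did not overlap. The share of all features without overlap is not given beside this count, so it does not set MaLR rows apart. By branch, 12 of 19 MT rows, 23 of 28 ORR1 rows and 21 of 36 MLT1 rows were called lower.

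**Figure D2:**
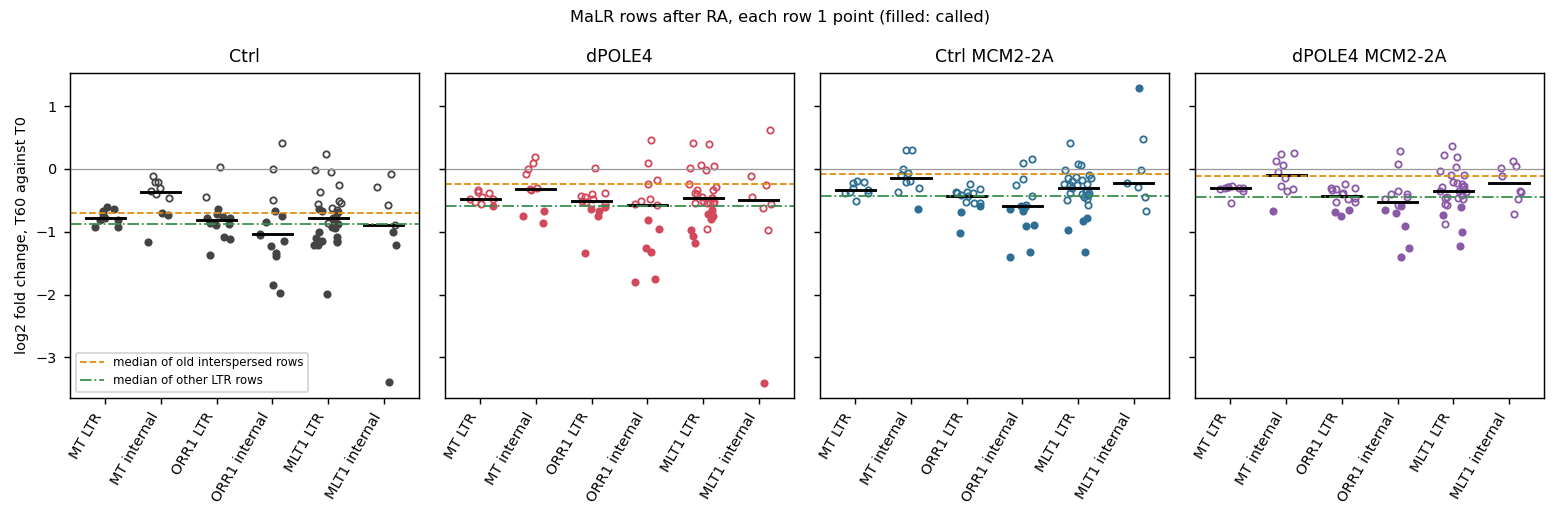
Log2 fold change of each MaLR row at T60 against T0 (vertical axis) in the 4 lines, by branch and by LTR or internal row (horizontal axis), with called rows filled, bars at the median of each column and dashed lines at the medians of old interspersed and other LTR rows. In Ctrl, 56 rows are called lower and none higher, and the single row called higher in any line is MLT1E2-int in Ctrl MCM2-2A.

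In the MT branch all 9 LTR rows tested were called lower in Ctrl at T60, with log2 fold changes between -0.93 and -0.61. MTD, the MT row with the most counts, was at 419, 460 and 471 CPM at T0 and at 258, 320 and 281 CPM at T60, and fell by 0.67 (SE 0.080, adjusted p = 1.9e-06), a direction that turned to 0.042 when libraries were scaled to other repeats. MTA_Mm, the subfamily whose LTR drives oocyte transcripts, went from 277, 290 and 286 CPM to 179, 167 and 160 CPM and fell by 0.77 (SE 0.060, adjusted p = 1.6e-08). Its internal row MTA_Mm-int was at 397, 398 and 404 CPM at T0 and at 263, 231 and 237 CPM at T60, a fall of 0.73 (SE 0.061, adjusted p = 3.8e-08). In none of the 3 did T0 and T60 libraries overlap.

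Of the 10 internal rows of the MT branch, 3 were called lower in Ctrl at T60, MTD-int (-1.16), MTA_Mm-int (-0.73) and MTE-int (-0.69), where MTD-int and MTE-int were named after their values were seen. Of the 9 MT subfamilies with both rows, the internal row had the lower log2 fold change in 1, MTD, and the median difference between internal and LTR row was 0.40. MTB-int, also named after its values were seen, was at 24.8, 23.9 and 23.2 CPM at T0, at 33.7, 32.5 and 29.0 CPM at T24 and at 21.1, 24.4 and 17.5 CPM at T60. Its T24 libraries were all above its T0 libraries, with a log2 fold change of 0.41 (SE 0.072, adjusted p = 2.0e-04) that did not reach the fold threshold, and its T60 libraries overlapped those of T0.

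In the ORR1 branch, 12 of 14 LTR rows and 11 of 14 internal rows were called lower in Ctrl at T60. ORR1B1-int was at 136, 139 and 149 CPM in Ctrl at T0 and at 33.2, 40.8 and 36.1 CPM at T60, and fell by 1.97 (SE 0.078, adjusted p = 9.4e-12). Its means were 119 ± 4.54 CPM at T12 and 95.4 ± 5.58 CPM at T24 (SD, n = 3), below the 141 ± 6.54 CPM of T0. ORR1C2-int, a rarer internal row, went from 18.1, 19.4 and 19.7 CPM to 5.23, 6.12 and 4.70 CPM and fell by 1.85 (SE 0.13, adjusted p = 3.5e-09). ORR1A0-int fell by 1.38 (SE 0.067), from 127 ± 2.45 CPM at T0 to 49.2 ± 4.14 CPM at T60 (SD, n = 3), and ORR1A2-int by 1.14 (SE 0.070), from 113, 118 and 128 CPM to 51.4, 57.8 and 56.7 CPM. For all 4 internal rows the T60 libraries lay below those of T0 without overlap. ORR1A2, the ORR1 row with the most counts, was at 182, 198 and 206 CPM at T0 and at 133, 125 and 125 CPM at T60, and fell by 0.63 (SE 0.062, adjusted p = 2.2e-07), a direction that turned to 0.095 when libraries were scaled to other repeats.

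Of 13 ORR1 subfamilies with both rows, the internal row had the lower log2 fold change in 8, with a median difference of -0.061. The 5 ORR1 rows that were not called in Ctrl at T60 were ORR1A1, ORR1A1-int, ORR1A3, ORR1A3-int and ORR1F-int, all named after their values were seen. ORR1A1-int was at 43.9, 43.3 and 46.7 CPM at T0, at 32.0, 29.5 and 32.0 CPM at T12 and at 59.2, 62.7 and 58.2 CPM at T60. It was thus lower than T0 at T12 and higher than T0 at T60 in every library, with log2 fold changes of -0.51 (SE 0.068, adjusted p = 1.2e-04) and 0.40 (SE 0.068, adjusted p = 7.1e-05), both under the fold threshold. Its LTR row ORR1A1 was at 50.8 ± 2.98 CPM at T0, 34.7 ± 0.684 CPM at T12 and 52.4 ± 8.90 CPM at T60 (SD, n = 3), and its T60 libraries overlapped those of T0.

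**Figure D3:**
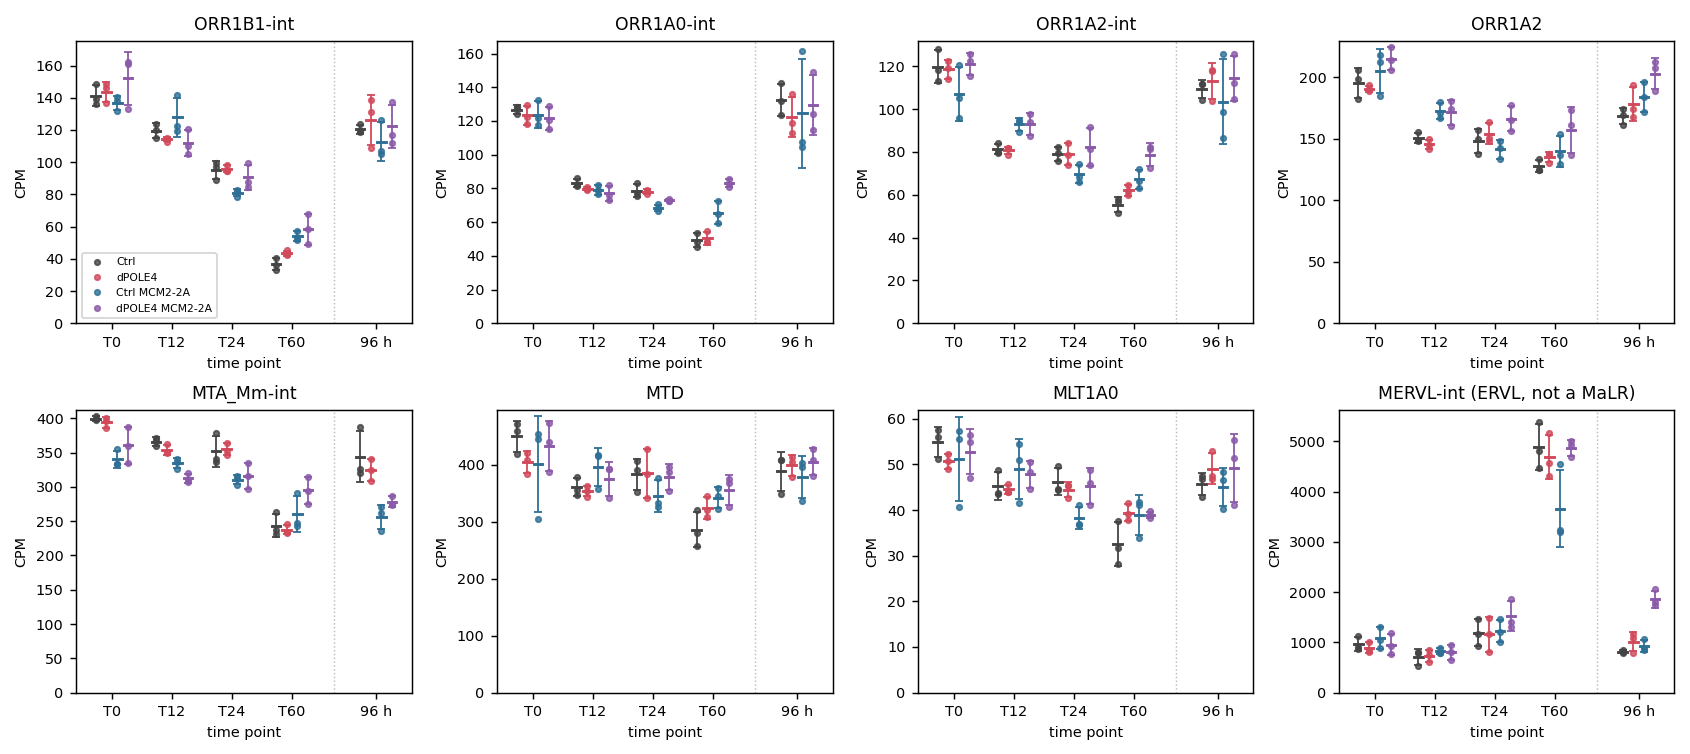
CPM (vertical axes, linear from 0) at each time point (horizontal axes) for named MaLR rows and for MERVL-int, an ERVL row that is not a MaLR, in the 4 lines and after 96 h; points are libraries, bars are means and error bars are SDs of 3. ORR1B1-int falls in every line from T0 to T60, while MERVL-int goes from a mean of 963 CPM to 4886 CPM in Ctrl.

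In the MLT1 branch, 18 of 29 LTR rows and 3 of 7 internal rows tested were called lower in Ctrl at T60. MLT1A0, the MLT1 row with the most counts, was at 51.2, 56.0 and 57.5 CPM at T0 and at 28.2, 37.7 and 31.8 CPM at T60, and fell by 0.78 (SE 0.096, adjusted p = 2.9e-06). The 3 internal rows were MLT1J1-int (-3.39), MLT1-int (-1.21) and MLT1F-int (-1.005), the last of which was named after its value was seen. MLT1-int went from 2.04, 3.36 and 2.33 CPM to 0.852, 1.46 and 1.15 CPM (SE 0.30, adjusted p = 0.0018). MLT1E fell by 1.99 (SE 0.37, adjusted p = 1.8e-04) on 32, 60 and 75 counts at T0 and 12, 13 and 4 counts at T60. In MLT1J1-int, MLT1-int and MLT1E no T60 library overlapped those of T0, but the standard errors of these 3 and of MLT1F-int were 0.28 or more.

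MLT1J1-int had the largest log2 fold change among the 83 rows tested in Ctrl at T60. In Ctrl it was counted 83, 66 and 79 times in the T0 libraries, or 4.71, 3.76 and 3.997 CPM, and 9, 3 and 3 times at T60, or 0.548, 0.274 and 0.288 CPM. The fall was 3.39 on the log2 scale in Ctrl (SE 0.30, adjusted p = 8.3e-08) and 3.41 in dPOLE4 (SE 0.29, adjusted p = 8.0e-08). In Ctrl MCM2-2A the row was already low at T0, with 11, 3 and 17 counts, or 0.512, 0.230 and 0.415 CPM, and it was not tested in the RA comparison of that line for too few counts.

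MaLR rows were called lower at T60 in all 4 lines. In dPOLE4, 23 of 84 rows were called lower (27.4%, against 22.5% of all features) and none higher, with a median of -0.48. In Ctrl MCM2-2A, 15 of 83 were called lower (18.1%, against 21.2%) with a median of -0.37, and 1 was called higher, against 26.3% of all features. In dPOLE4 MCM2-2A, 14 of 84 were called lower (16.7%, against 19.3%) and none higher, with a median of -0.35. Shares in these 3 lines were thus near those of all features. They lay between those of other repeat classes. In the same order of lines, 44.3%, 32.4% and 27.1% of other LTR rows and 5.45%, 1.79% and 1.89% of old interspersed rows were called lower. Without replicate 1 of Ctrl MCM2-2A T0, the library with the least MaLR RNA at that time, 27 rows were called lower in Ctrl MCM2-2A and none higher, with a median of -0.51. The share of all features called is not given for fits with a library left out. Without replicate 3 of the same group 8 were called. The summed MT branch at T60 differed from T0 by -0.29 on the log2 scale in Ctrl MCM2-2A with all libraries and by -0.42 without replicate 1, the ORR1 branch by -0.56 and -0.66, and the MLT1 branch by -0.29 and -0.47.

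The row called higher was MLT1E2-int, on 5, 4 and 7 counts at T0 and 11, 18 and 9 counts at T60 in Ctrl MCM2-2A. Its level rose from 0.236 ± 0.068 CPM to 0.521 ± 0.061 CPM (SD, n = 3), a log2 fold change of 1.29 (SE 0.39, adjusted p = 0.0093). The call was lost with DESeq2 and with any single library left out.

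Of the rows called lower at T60, 10 of 15 in Ctrl MCM2-2A and 9 of 14 in dPOLE4 MCM2-2A were ORR1 rows, while ORR1 gave 28 of the rows tested in each. MTD-int was the only MT row called in either, with log2 fold changes of -0.63 and -0.67. When replicate 1 of Ctrl MCM2-2A T0 was left out, the 27 rows called in that line included all 15, and 15 were ORR1 rows, 10 were MLT1 rows and 2 were MT rows, MTB_Mm being the second. ORR1B1-int went from 132, 138 and 140 CPM to 57.5, 53.2 and 51.9 CPM in Ctrl MCM2-2A (-1.32, SE 0.063, adjusted p = 1.0e-09) and from 162, 161 and 133 CPM to 68.1, 58.3 and 48.9 CPM in dPOLE4 MCM2-2A (-1.41, SE 0.12, adjusted p = 9.3e-07). In dPOLE4 it went from 149, 137 and 146 CPM to 45.3, 42.4 and 42.9 CPM (-1.75, SE 0.056, adjusted p = 2.5e-12). The T60 libraries lay below the T0 libraries in every line.

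Across the 4 lines, 11 rows were called lower in each: ORR1A0, ORR1A2-int, ORR1A4, ORR1A4-int, ORR1B1-int, ORR1B2 and ORR1C2-int of the ORR1 branch, MTD-int of the MT branch, and MLT1F1, MLT1F2 and MLT1J2 of the MLT1 branch, of which those not shown above were named after their values were seen. A further 4 were called in 3 lines, 8 in 2 lines and 36 in 1 line, and 35 of the 94 in none. The rows called in none include rows with too few counts to be tested. Shares of all features called in as many lines are not given, so these counts are not set against a background. With replicate 1 of Ctrl MCM2-2A T0 left out, 12 were called in 4 lines, 4 in 3 lines, 16 in 2 lines and 28 in 1 line, and 34 in none, untested rows again included. MLT1J2 gave 8.74, 9.03 and 7.71 CPM at T0 and 3.61, 3.33 and 3.02 CPM at T60 in Ctrl MCM2-2A, a fall of 1.33 (SE 0.13, adjusted p = 1.4e-06), and fell by 0.79 (SE 0.19) in Ctrl. MLT1O, which was called lower in dPOLE4 and dPOLE4 MCM2-2A, fell by 1.23 in the latter (SE 0.21, adjusted p = 2.4e-04).

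Levels were also set against other repeats. When library sizes were taken from the repeats outside the set, the median of all features in the Ctrl T60 comparison moved by 0.73 on the log2 scale, so that a row with a smaller fall changes sign by the shift alone. The MaLR median became -0.063, and 7 rows were called lower and 6 higher. Shares of all features called in this scale are not given, so its counts are not set against a background. In this scale MTD (0.042) and ORR1A2 (0.095) were no longer lower, and neither MTA_Mm (-0.047) nor MLT1A0 (-0.063) was called. ORR1B1-int (-1.25, SE 0.13, adjusted p = 1.7e-09) and ORR1C2-int (-1.13, SE 0.18) were still called lower in Ctrl, and in the other 3 lines as well (ORR1B1-int between -1.39 and -1.11, ORR1C2-int between -1.44 and -1.002). ORR1A0 was called lower in 3 of the 4 lines. ORR1A1-int was called higher, by 1.13 in Ctrl (SE 0.13, adjusted p = 2.5e-08) and 0.82 in dPOLE4 (SE 0.092, adjusted p = 7.8e-08). In the other lines this scale gave 9 rows lower and 4 higher in dPOLE4, 6 lower and 1 higher in Ctrl MCM2-2A, and 5 lower and 1 higher in dPOLE4 MCM2-2A.

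Ratios of summed CPM, which need no library size, were also taken. The ORR1 branch was at 0.748, 0.714 and 0.760 of the summed old interspersed repeats in the Ctrl T0 libraries and at 0.710, 0.571 and 0.616 at T60, a log2 difference of -0.23 with no overlap. The difference was -0.40 in dPOLE4, -0.48 in Ctrl MCM2-2A and -0.39 in dPOLE4 MCM2-2A, and T60 libraries were below T0 libraries in each of the 4 lines (exact permutation p = 0.1 in each). In Ctrl MCM2-2A it was -0.40 without replicate 1 of T0. For the MT branch the ratio differed by -0.080 in Ctrl, where the libraries overlapped (exact permutation p = 0.4), and by -0.22, -0.21 and -0.17 in the other lines, with no overlap in any of these 3 (exact permutation p = 0.1 in each). For MLT1 it differed by -0.11 in Ctrl, with overlap (exact permutation p = 0.2), and by -0.14, -0.21 and -0.15 in the others, again with no overlap (exact permutation p = 0.1 in each). In Ctrl MCM2-2A without replicate 1 of T0 the MT difference was -0.17 and the MLT1 difference -0.21. Summed other LTR rows went from a mean of 19834 CPM at T0 to 11417 CPM at T60 in Ctrl. Over the same time MERVL-int, an ERVL row outside MaLR, rose strongly, as given below. Its part in the ratios to other LTR rows was not tested, so these ratios do not show how MaLR stood to LTR rows other than MERVL. Against all other LTR rows the ORR1 ratio differed by -0.043 in Ctrl, -0.030 in dPOLE4, 0.014 in Ctrl MCM2-2A and -0.23 in dPOLE4 MCM2-2A, with overlap in each (exact permutation p between 0.3 and 0.6). The MT ratio to other LTR rows was higher at T60 without overlap in dPOLE4 (0.15) and Ctrl MCM2-2A (0.29), at the smallest exact permutation p of 0.1, and overlapped in Ctrl (0.11) and dPOLE4 MCM2-2A (-0.0096). The MLT1 ratio was likewise higher without overlap in dPOLE4 (0.23) and Ctrl MCM2-2A (0.29), and overlapped in Ctrl (0.079) and dPOLE4 MCM2-2A (0.0091). In Ctrl MCM2-2A without replicate 1 of T0 they were 0.25 for MT and 0.20 for MLT1. With that library left out the libraries still did not overlap in these ratios, except in that of ORR1 to other LTR rows (0.0080), and 0.2 was the smallest exact permutation p that 3 against 2 libraries allow.

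Not every ERVL element fell with RA. MERVL-int, the internal row of an intact ERVL family that marks cells resembling the 2-cell embryo, was at 1116, 862 and 911 CPM in Ctrl at T0 and at 5384, 4802 and 4473 CPM at T60. It rose by 2.32 (SE 0.10, adjusted p = 2.8e-11), and its LTR MT2_Mm, which despite its name is no MT element of the MaLR branch, rose by 2.44 (SE 0.11, adjusted p = 4.8e-11). Of the list of 2-cell-like markers, to which both belong, 10 of 10 tested were called higher at T60 in each of the 4 lines. The summed level of that list went from 1037 to 1383 CPM in Ctrl at T0 to between 5728 and 6989 CPM at T60, while MTA_Mm fell, and the part of these cells in the MaLR levels was not tested.

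Of 18 genes that are known to act on the expression of class III LTR elements, in either direction, or to mark their release, 8 were called in Ctrl at T60, or 44.4%, against 50.1% of all genes. The 7 that fell were Rif1 (-2.18), Dppa2 (-1.68), Trim28 (-1.62), Dppa4 (-1.55), Atrx (-1.12), Setdb1 (-0.91) and Hdac2 (-0.69). Zscan4c, a marker of 2-cell-like cells, was the 1 that rose (3.96). Trim28, the scaffold that brings histone methyltransferase to LTR elements, was at 2674, 2569 and 2619 CPM at T0 and at 969, 799 and 833 CPM at T60. Kdm1a, a histone demethylase whose loss releases MERVL, did not pass the test (-0.081, SE 0.056). At T12, 1 rose and 1 fell (Dppa2 0.74, Rif1 -0.68), and at T24 3 fell (Rif1 -0.93, Trim28 -0.73, Setdb1 -0.70). Of all genes, 4.05% were called lower and 7.57% higher at T12, and 8.34% and 14.2% at T24. In each of dPOLE4, Ctrl MCM2-2A and dPOLE4 MCM2-2A, 9 of the 18 fell and 1 rose at T60. Of all genes, 22%, 22.2%, 21.3% and 19.4% were called lower at T60 in Ctrl and these lines, and 28.1%, 26.7%, 27.4% and 23.9% higher. The list was chosen with earlier results of these data known, so its counts are no test of the list. The part of these genes in MaLR levels was not tested.

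The MCM2-2A background differed from WT in few MaLR rows. In Ctrl MCM2-2A against Ctrl, 2 of 83 rows were called at T0 (18.9% of all features), 1 of 83 at T12 (14.5%), 3 of 84 at T24 (17.3%), 1 of 82 at T60 (16.9%) and 1 of 84 at 96 h (15.7%). At each time the share of MaLR rows called was below that of all features. This was not particular to MaLR rows, since the shares of other LTR rows and of old interspersed rows were below it too. Of other LTR rows, 1.26% were called higher and 5.04% lower at T0, and 7.24% and 2.14% at T60. Of old interspersed rows, 0% and 0% were called at T0, and 6% and 0% at T60. Medians were -0.12 at T0, 0.083 at T12, -0.16 at T24, 0.27 at T60 and -0.037 at 96 h, beside medians of -0.17, 0.11, -0.17, 0.31 and -0.055 for all other repeats. Without replicate 1 of Ctrl MCM2-2A T0, and with the low replicate 1 of Ctrl T0 kept, the median at T0 was 0.014. MTA_Mm-int, which was not called, was at 397, 398 and 404 CPM in Ctrl and at 333, 333 and 355 CPM in Ctrl MCM2-2A at T0, and at 320, 387 and 326 CPM against 270, 262 and 236 CPM after 96 h. The libraries did not overlap at either time, and the differences of -0.25 (SE 0.053, adjusted p = 0.0024) and -0.41 (SE 0.092, adjusted p = 0.0036) stayed under the fold threshold. The RA comparisons and these share control libraries at T0 and T60, and their values are given side by side.

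MLT1J1-int was the row called at 4 of these 5 times. At T0 it was lower in Ctrl MCM2-2A by 3.35 on the log2 scale (SE 0.25, adjusted p = 1.2e-06). At T12 the difference was -3.89 (SE 0.37, adjusted p = 2.2e-05), on 69, 56 and 48 counts in Ctrl and 2, 5 and 2 counts in Ctrl MCM2-2A, and at T24 it was -4.44 (SE 0.37, adjusted p = 5.0e-08), on 63, 75 and 57 counts against 2, 2 and 2. In the 96 h experiment it was at 1.85, 2.34 and 2.85 CPM in Ctrl and at 0.278, 0.249 and 0.314 CPM in Ctrl MCM2-2A, a difference of -3.01 (SE 0.36, adjusted p = 3.5e-05). No MCM2-2A library reached the level of any WT library at these 4 times. At T60 the row was at 0.370 ± 0.154 CPM in Ctrl and 0.109 ± 0.018 CPM in Ctrl MCM2-2A (SD, n = 3), with 15 and 8 counts in all, too few to be tested. Its LTR row MLT1J1 was called at none of the 5 times. Whether the low level is of the mutation or of the clone cannot be told apart.

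**Figure D4:**
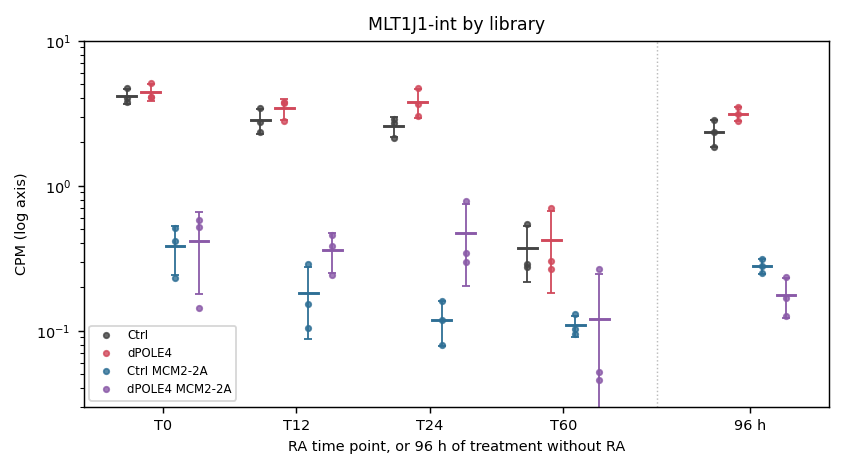
CPM of MLT1J1-int (vertical axis, log scale) at each RA time point and after 96 h of treatment (horizontal axis) in the 4 lines; points are libraries, bars are means and error bars are SDs of 3. The 3 Ctrl libraries at T0 lie between 3.76 and 4.71 CPM and those of Ctrl MCM2-2A between 0.230 and 0.512 CPM.

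The other called rows differed by less. At T0, MLT1J2 was at 6.24, 5.53 and 4.35 CPM in Ctrl and at 8.74, 9.03 and 7.71 CPM in Ctrl MCM2-2A, a rise of 0.63 (SE 0.15, adjusted p = 0.0042) without overlap. At T24, MTE2b-int (-0.61, SE 0.18, adjusted p = 0.0089) and MLT1E2 (-0.61, SE 0.12, adjusted p = 3.8e-04) were lower. At T60, ORR1B1-int was at 33.2, 40.8 and 36.1 CPM in Ctrl and at 57.5, 53.2 and 51.9 CPM in Ctrl MCM2-2A, higher by 0.58 (SE 0.087, adjusted p = 7.7e-05), a value at the fold threshold that DESeq2 did not call. In the 96 h experiment, where same-numbered libraries deviated together, a fit with the replicate number as a block called 2 rows, MLT1J1-int and MTE2b-int (-0.94, SE 0.21, adjusted p = 0.0022). MTE2b-int was at 4.01, 5.18 and 3.37 CPM in Ctrl and at 2.08, 2.73 and 1.68 CPM in Ctrl MCM2-2A there.

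The RA response itself differed between the backgrounds in 2 of 84 rows, or 2.38%, both higher in Ctrl MCM2-2A, where 4.7% of all features were called higher. The difference of the log2 fold changes at T60 was 0.62 for ORR1B1-int (SE 0.10, adjusted p = 3.3e-04) and 0.71 for ORR1G (SE 0.18, adjusted p = 0.0079). ORR1G was at 23.4, 22.98 and 26.9 CPM in Ctrl at T0 and at 11.8, 13.3 and 8.93 CPM at T60, and at 16.7, 19.4 and 21.5 CPM and 14.9, 15.4 and 13.5 CPM in Ctrl MCM2-2A. The median difference over the 84 rows was 0.38, beside 0.46 for all other repeats. Without replicate 1 of Ctrl MCM2-2A T0, and with that of Ctrl T0 kept, ORR1B1-int alone was called (0.59, adjusted p = 5.5e-04) and the median was 0.25. With library sizes taken from the other repeats none was called. With 1 library left out, 0 to 9 rows were called, 0 without replicate 1 of Ctrl T60 and 9 without replicate 3 of Ctrl MCM2-2A T0.

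No MaLR row passed the thresholds after depletion of POLE4 in the main fits, which leave out the replicate number. Same-numbered libraries did deviate together at T0, T24 and 96 h in WT and at T0 and 96 h in MCM2-2A. A paired fit called MLT1G at 96 h in MCM2-2A, as given below. In the WT background 0 rows were called at T0, T12, T24, T60 and 96 h, where 0%, 0%, 0%, 0.193% and 0% of all features were called. In the MCM2-2A background 0 were called at the same times, where 0.0715%, 0.404%, 1.02%, 2.25% and 0.304% of all features were. DESeq2 also called 0 in all 10 comparisons. At an unadjusted p under 0.05 there were 15, 3, 1, 30 and 1 rows in WT and 2, 6, 23, 4 and 6 rows in MCM2-2A, with 80 to 86 rows tested each time. Of these, 1, 0, 1, 30 and 1 were higher in dPOLE4 in WT, so that 14 of 15 were lower at T0 and 3 of 3 at T12, and 2, 1, 23, 4 and 5 were higher in MCM2-2A. The shares of all features under that p are not given, so these counts are not set against a background. For the 8 rows followed throughout (MTD, MTA_Mm, MTA_Mm-int, ORR1A2, ORR1A2-int, ORR1B1-int, MLT1A0 and MLT1-int) the log2 difference lay between -0.28 and 0.41 in all 10 comparisons.

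At T0 in WT the median of the 84 rows tested was -0.12, beside -0.16 for all other repeats, and ORR1G had the lowest adjusted p (0.362). At T60 in WT the median of the 80 rows tested was 0.21, the same as for all other repeats (0.21). MTEb-int had the lowest adjusted p (0.0884, log2 difference 0.36, SE 0.10). At T24 in MCM2-2A the median was 0.17 over 82 rows, beside 0.16 for all other repeats. There ORR1A4-int was at 62.2, 65.2 and 64.5 CPM in Ctrl MCM2-2A and at 72.4, 75.3 and 77.5 CPM in dPOLE4 MCM2-2A, with no overlap, a difference of 0.24 (SE 0.063, adjusted p = 0.039). At T60 in MCM2-2A, ORR1A0-int was at 72.7, 64.8 and 59.3 CPM in Ctrl MCM2-2A and at 82.9, 80.7 and 85.4 CPM in dPOLE4 MCM2-2A, with no overlap, and the difference of 0.34 (SE 0.081, adjusted p = 0.024) did not pass either threshold. Under the paired fit with the replicate number as a block, 1 row was called after 96 h in MCM2-2A, MLT1G (0.71, SE 0.17, adjusted p = 0.0050). It was at 2.50, 4.60 and 4.61 CPM in Ctrl MCM2-2A and 2.84, 7.14 and 8.97 CPM in dPOLE4 MCM2-2A. The level was higher in dPOLE4 MCM2-2A in each same-numbered pair, though the groups overlapped. Tested as a difference between MCM2-2A and WT, the response to POLE4 loss was called in 0 of 82 rows at T60 (0.1% of all features) and in 0 of 83 rows at 96 h (0%), with 5 and 4 rows at an unadjusted p under 0.05. The shares of all features under that p are not given here either. MERVL-int, for comparison, was at 1067, 880 and 846 CPM in Ctrl MCM2-2A and at 2053, 1796 and 1733 CPM in dPOLE4 MCM2-2A after 96 h, and rose by 1.003 (SE 0.11, adjusted p = 0.0025).

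**Figure D5:**
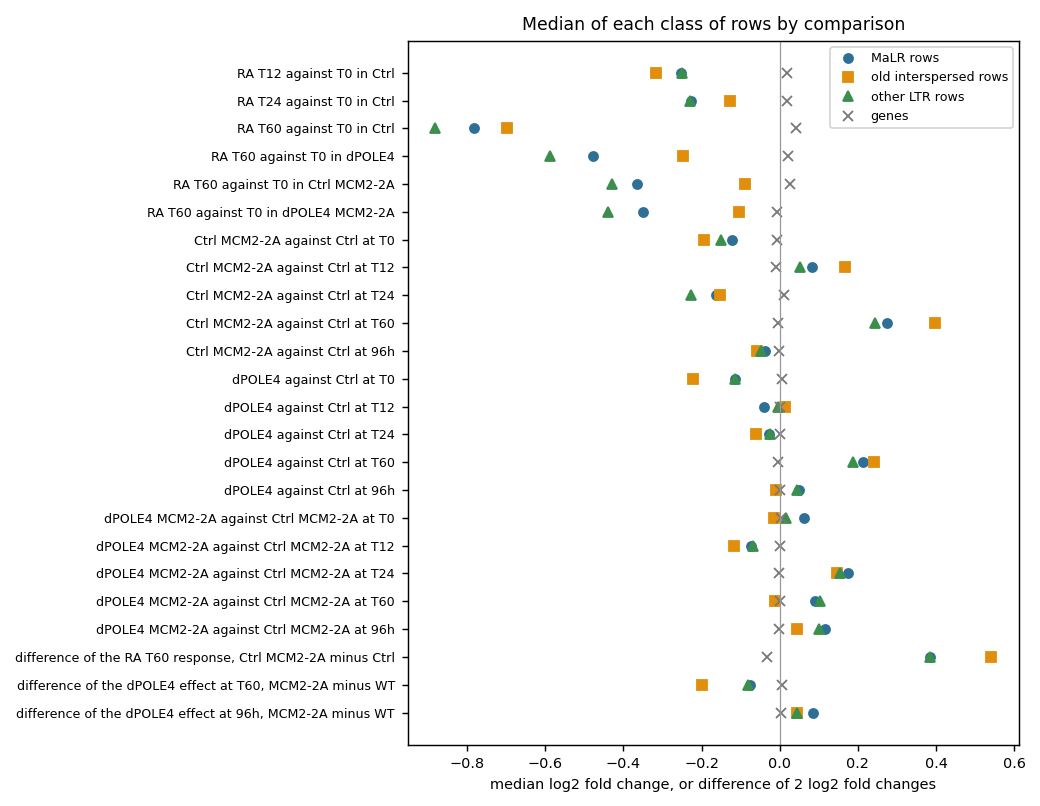
Median log2 fold change, or difference of log2 fold changes, of the MaLR rows tested, beside that of old interspersed repeats, other LTR rows and genes (horizontal axis), in each comparison (vertical axis). MaLR medians run from -0.78 at T60 of RA in Ctrl to 0.38 for the difference of the RA response, and the gene medians stay near 0.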

How the data were processed

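RNA was depleted of rRNA, made into strand-specific libraries and sequenced in 100-bp pairs, and the authors trimmed reads with cutadapt 4.2, aligned them with STAR to mm10 with multimapping reads kept, and deposited counts of reads per gene (GENCODE M25) and per repeat subfamily made with TEcount. The strand setting of the counting is not given in the sources used here. Multimapping reads are shared among near-identical subfamilies, so that related rows are not independent. The deposited counts were not normalized or pooled. Each comparison was fitted with edgeR 4.0.16 (R 4.3.3; limma 3.58.1) on all features of its groups alone: filterByExpr (minimum count 10, total 15), TMM scaling, glmQLFit and glmQLFTest, and Benjamini-Hochberg adjustment over all features tested, without the replicate number. A row was called at an adjusted p below 0.01 and a log2 fold change beyond 0.58. Standard errors were taken as the fold change over the root of F. Branch sums were compared by exact permutation tests. Named rows were all called members where 10 or fewer, otherwise the 5 with the largest change in each direction, plus the most counted row of each branch and among internal rows of each branch, MTA_Mm, MTA_Mm-int, ORR1A2 and ORR1A2-int. The members and gene lists (regulators of LTR elements, stem cell, 2-cell-like, RA response, neural, endoderm, trophoblast and oocyte markers) were chosen with earlier results of these data known. Replicates were described as biological by the study. Replicate numbers in the labels paired the libraries (correlation of deviations above 0.1 in every pair) in 6 comparisons: dPOLE4 against Ctrl at T0, T24 and 96 h, Ctrl MCM2-2A against Ctrl at 96 h, and dPOLE4 MCM2-2A against Ctrl MCM2-2A at T0 and 96 h. DESeq2 1.42.0, other scalings, filters and left-out libraries were alternatives. The fits were tested on simulated data.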

Additional observations from a re-analysis of the deposited data

Results flagged for a closer look

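The response of 2 rows to 60 h of RA differed between the Ctrl MCM2-2A and Ctrl cells by a test of the difference itself (edgeR's quasi-likelihood test with Benjamini-Hochberg adjustment). The log2 fold change of ORR1B1-int was higher in Ctrl MCM2-2A by 0.62 (SE 0.10, adjusted p = 3.3e-04), and that of ORR1G by 0.71 (SE 0.18, adjusted p = 0.0079). These are 2.38% of the 84 rows tested, below the 4.7% of all features called higher. ORR1B1-int was not called without replicate 3 of Ctrl T0 or without replicate 1 of Ctrl T60, and ORR1G was called in 3 of the 12 fits with 1 library left out. No row was called without replicate 1 of Ctrl T60, and 9 were without replicate 3 of Ctrl MCM2-2A T0. With library sizes taken from other repeats neither was called. Summed stem cell markers were at 195 CPM in Ctrl and 457 CPM in Ctrl MCM2-2A at T60, and their part in these differences was not tested.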

How the results depend on the processing

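All 10 counts for POLE4 depletion stayed at 0 with any library left out and with DESeq2. With library sizes from other repeats, counts of called rows were 0 at T12 of RA, 1 at T24, and at T60 13 in Ctrl, 13 in dPOLE4, 7 in Ctrl MCM2-2A and 6 in dPOLE4 MCM2-2A. MTD (0.042) and ORR1A2 (0.095) changed sign in Ctrl at T60 in that scale, Ctrl MCM2-2A against Ctrl gave 1 at T24 and 2 at 96 h, and the difference of the RA response gave 0. Without the fold threshold, 27 rows passed at T12, 33 at T24, 53 at T60 in dPOLE4, 29 in Ctrl MCM2-2A and 29 in dPOLE4 MCM2-2A, and 3 (T12), 12 (T24), 13 (T60) and 2 (96 h) in Ctrl MCM2-2A against Ctrl. With DESeq2, or its size factors, 0 passed in Ctrl MCM2-2A against Ctrl at T60, where TMM on genes alone gave 2, and DESeq2 called 4 in the difference of the RA response. Without a filter on low counts, 3 rows passed in Ctrl MCM2-2A against Ctrl at T60 and 3 at 96 h, 1 after POLE4 depletion in MCM2-2A at T12, and 11 in the difference of the RA response. With at least 10 counts in every library, Ctrl MCM2-2A against Ctrl gave 1 at T0, 0 at T12, 2 at T60 and 0 at 96 h. In 1 fit over all libraries the 96 h comparison gave 2 and the difference of the RA response 6. With the replicate number as a block, the count was 2 at 96 h in Ctrl MCM2-2A against Ctrl and 1 at 96 h after POLE4 depletion in MCM2-2A, and the other 22 counts stayed within 1.5 times. With 1 library left out, counts ran from 1 to 3 at T12 of RA, 2 to 10 at T24, and at T60 49 to 58 in Ctrl, 22 to 26 in dPOLE4, 8 to 27 in Ctrl MCM2-2A and 12 to 17 in dPOLE4 MCM2-2A. In Ctrl MCM2-2A against Ctrl they ran from 1 to 2 at T0, T12 and 96 h, from 1 to 3 at T24 (1 without replicate 1 of Ctrl T24 or 2 of Ctrl MCM2-2A T24) and from 0 to 2 at T60 (0 without replicate 1 or 3 of Ctrl T60 or 1 of Ctrl MCM2-2A T60), and in the difference of the RA response from 0 to 9. Without TMM factors, MT sums differed by -0.077 at T24, and at T60 by -0.58 in Ctrl, -0.34 in dPOLE4 and -0.15 in dPOLE4 MCM2-2A; ORR1 sums by -0.24 at T24, and at T60 by -0.73, -0.52, -0.41 and -0.37 in the 4 lines; MLT1 sums by -0.10 at T24 and -0.26 at T60 in dPOLE4. Shares of all features called are not given for these alternatives, so their counts show how far calls move and not how MaLR rows stand to other features. The causes were not tested.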
